A study of Rattus norvegicus with 6 samples.

Results

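P2rx7 encodes the P2X7 receptor, and it is described here in the kidney of low birth weight (LBW) and control rats. The gene was chosen by its LBW against control difference on these same 6 arrays, so that difference and every value from the same contrast are given as a description, with no test. It is 1 gene of the 100 gene symbols that the probe tables used here give to probes of the array, and those 100 were selected on the same contrast. A single probe, A_44_P188222, carried the symbol, and it was printed once on each array, at row 75 and column 88 of the grid. The array holds 40351 probes, of which 108 have a gene symbol in these tables, so whether other probes also detect P2rx7 was not analysed here.

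Kidneys were taken from male Sprague Dawley rats at postnatal day 10. The 3 LBW rats were offspring of dams on a low-protein diet through pregnancy and the following days of suckling, and had a birth weight below a limit set from the mean and SD of the control pups. The 3 control rats were of normal birth weight and their dams ate a diet of normal protein content. Total RNA of each rat was labelled with Cy3 and hybridized to 1 one-colour Agilent array, which gives 1 brightness (intensity) per spot.

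The P2X7 receptor is an ion channel of the cell membrane that opens when ATP outside the cell reaches high concentrations and lets sodium and calcium in and potassium out. In macrophages and other immune cells its opening is known as a trigger of the NLRP3 inflammasome, which leads to release of mature interleukin-1 beta. In the kidney the receptor has been studied mainly in inflammation and fibrosis, where it has been found on macrophages and on resident kidney cells.

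On the control arrays the P2rx7 spot had a background-subtracted intensity of 10.9 (control 1), 11.2 (control 2) and 13.7 (control 3), with errors from the scanner software of 1.92, 1.87 and 1.96. On the LBW arrays the intensity of the P2rx7 spot was 31.1 (LBW 1), 40.4 (LBW 2) and 31.9 (LBW 3), with errors of 3.47, 4.38 and 3.59. Every LBW array was brighter than every control array at this spot, and the groups did not overlap. The gap between control 3, the brightest control, and LBW 1, the dimmest LBW array, was 17.4 intensity units, a ratio of 2.28. Any 2 control intensities differed by less than the sum of their errors, so the order of the controls was not resolved, and LBW 1 and LBW 3 differed by less than the error of either spot.

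**Figure D1:**
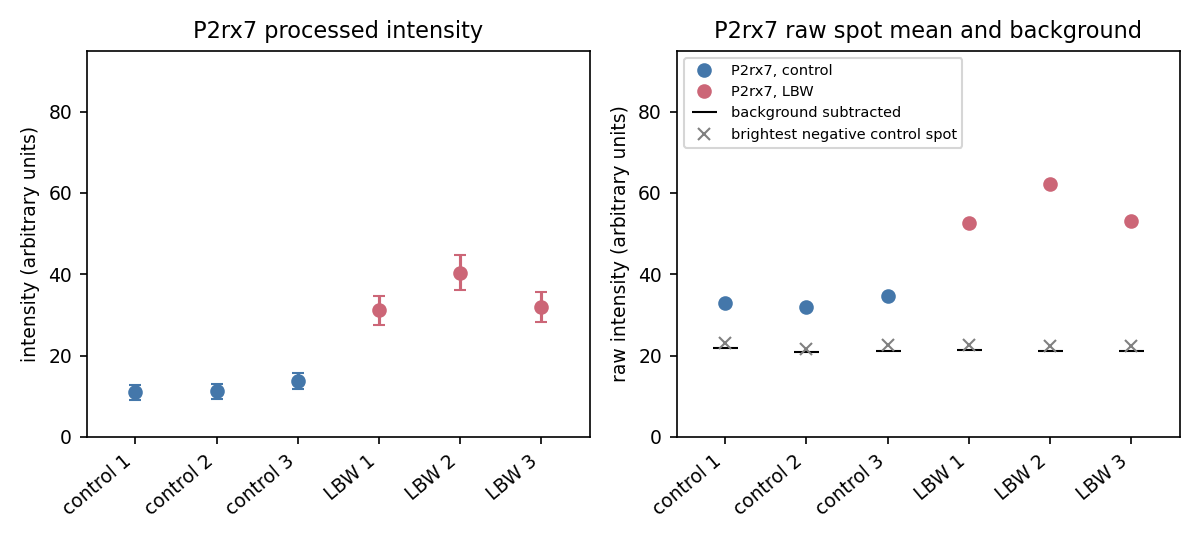
P2rx7 on each array. Left, processed intensity (arbitrary units, after background subtraction) with the error given by the scanner software. Right, raw spot mean before subtraction (circles), the background that was subtracted (dashes) and the brightest negative control spot of the array (crosses). The 3 LBW arrays lie at 31.1 to 40.4 on the left and the 3 control arrays at 10.9 to 13.7.

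After quantile normalization between arrays the log2 level of P2rx7 was 3.30, 3.57 and 3.77 on control 1, 2 and 3. The log2 level on LBW 1, 2 and 3 was 4.87, 5.27 and 5.26. LBW 2 and LBW 3, which were apart on the intensity scale, came to the same level after normalization, and LBW 1 was the lowest of its group. The mean log2 level was 3.55 ± 0.24 (SD, n = 3) in controls and 5.14 ± 0.23 (SD, n = 3) in LBW rats, a difference of 1.59 (limma SE 0.17) or 3.01-fold, higher in LBW. Of the 9 pairings of an LBW with a control array, the smallest difference in the P2rx7 log2 level was 1.1 and the largest 1.98. In a whole kidney, more cells that hold a transcript and more transcript per cell cannot be told apart.

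The size of the P2rx7 fold change depended on how dim signal was treated. With normexp background correction and an offset of 50 the log2 difference of P2rx7 was 0.42, and with 16 added to the signal before the logarithm it was 0.89. On the raw spot mean, with no background taken off, it was 0.75, an alternative chosen after seeing the data. These settings add a constant to, or leave a background in, a control signal of little more than 10 units, and each of them lowers a ratio by its construction. The direction was the same under all of them, and in the 8 sets of values computed, the smallest gap between the lowest LBW and the highest control array was 0.27 on the log2 scale, with normexp.

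**Figure D2:**
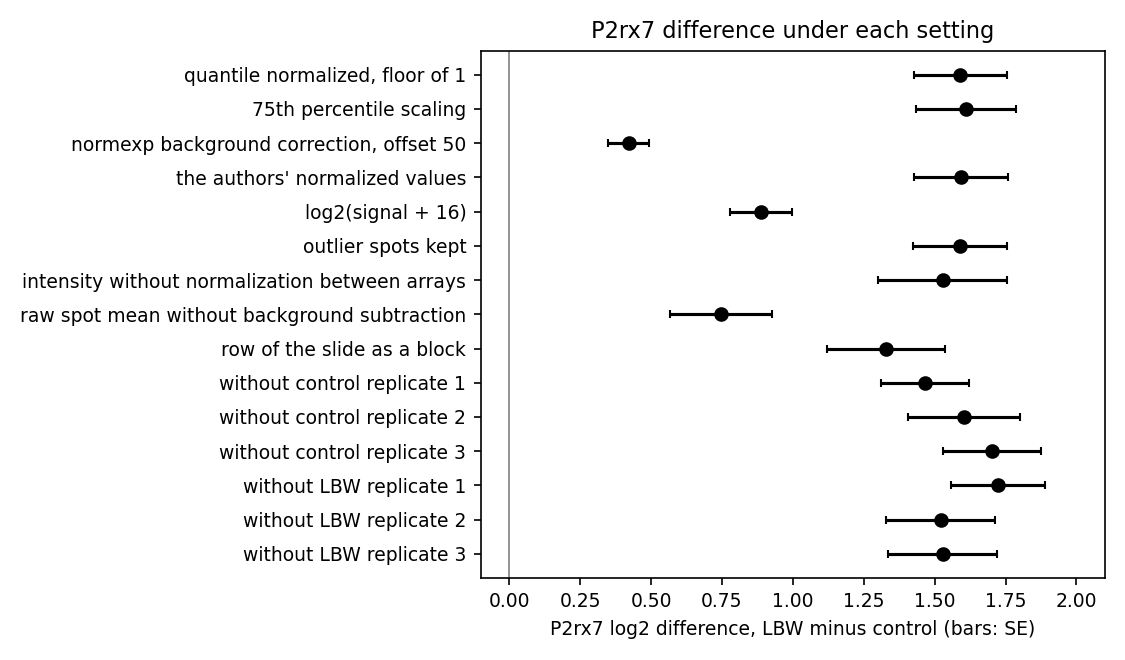
Log2 difference of P2rx7, LBW minus control, under each way of processing the arrays and with each array left out (points, with the limma SE as bars). All points lie above 0, from 0.42 with normexp background correction to 1.72 without LBW 1, where slide row and group cannot be told apart.

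Each array was also left out in turn, as a description. The groups did not overlap, so the direction could not change. Without control 1, control 2 or control 3 the P2rx7 log2 difference was 1.47, 1.60 or 1.70. Without LBW 1, LBW 2 or LBW 3 it was 1.72, 1.52 or 1.53. The lowest of these values came without control 1, the dimmest control, and the highest without LBW 1, the dimmest LBW array. Without LBW 1 no LBW array shared a row of the slide with a control, so in that value row and group cannot be told apart.

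All arrays lay on 1 slide and were scanned once, and the place on the slide was partly tied to the group. Row 1 of the slide held the 3 controls and LBW 1, and row 2 held LBW 2 and LBW 3. Within row 1 the P2rx7 log2 level of LBW 1 was 1.33 above the control mean, or 2.51-fold, and a fit with the row as a block gave the same 1.33 (SE 0.21), since row 2 holds no control. In row 2 the mean P2rx7 level was 0.40 above that of LBW 1, a value in which row and rat cannot be told apart. The row 2 arrays lay 1.72 above the control mean, and in that value row and group cannot be told apart.

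The P2rx7 spot was flagged well above background by the scanner software on 3 of 3 control and 3 of 3 LBW arrays, and on none of them was it marked as an outlier. The raw spot mean before any subtraction was 32.9, 32.0 and 34.7 on the control arrays. On the LBW arrays it was 52.5, 62.2 and 53.0. The background subtracted from the P2rx7 spot averaged 21.3 units in controls and 21.1 in LBW rats, a difference of -0.16, while the raw spot mean differed by 22.7. Negative control spots, which have no target in the rat, reached a raw mean of at most 23.0, 21.7 and 22.7 on control 1, 2 and 3 and 22.6, 22.3 and 22.4 on LBW 1, 2 and 3, over 294 to 304 spots per array. The P2rx7 spot was brighter than the brightest negative control on each array, by a narrower margin in the controls.

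P2rx7 was nevertheless a dim spot. On control 1, 2 and 3, 20.1%, 22.2% and 23.8% of the non-control spots were dimmer than it. On LBW 1, 2 and 3 the share was 33.8%, 37.8% and 37.7%. Among spots that were well above background, only 4.12%, 4.84% and 8.89% were dimmer than P2rx7 on the control arrays, against 20.1%, 23.5% and 21.9% on the LBW arrays. The control level of P2rx7 was thus close to the lower limit of measurement. These shares rank spot brightness, which depends on the probe as well as on the transcript.

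With 1 spot per array, the error of a single P2rx7 reading can be gauged from probes printed 3 times on the array. Among such probes of a like intensity, within 0.25 on the log2 scale, the median SD between the spots of a probe was 0.36, 0.34 and 0.33 at the P2rx7 intensity of control 1, 2 and 3, over 458, 443 and 508 probes. At the P2rx7 intensity of LBW 1, 2 and 3 it was 0.20, 0.18 and 0.19, over 521, 543 and 506 probes. The SD of P2rx7 between rats was 0.24 in controls, below this median spot error, and 0.23 in LBW rats, slightly above it. The 95th percentile of the spot SD was 0.86, 0.83 and 0.68 for control 1, 2 and 3 and 0.55, 0.51 and 0.48 for LBW 1, 2 and 3.

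The tested probes, 33608 in all, were those flagged above background on every array of the LBW group, of the control group or of both. Of these, 10.5% had every LBW value above every control value, as P2rx7 did. With a difference of at least 2-fold as well, 0.22% did. P2rx7 was chosen on this contrast, so nothing is read from its place among them. Over all tested probes the median log2 difference was 0.00 and the median size of a difference was 0.15. In the limma fit across them 48 probes, or 0.143%, had an adjusted p under 0.05, 16 higher and 32 lower in LBW. That count was 7 with the slide row as a block, 29, 12 and 4 without control 1, 2 and 3, and 3, 4 and 4 without LBW 1, 2 and 3. Without any 1 of the LBW arrays, or with no filter on dim probes, 0 of the probes called were higher, and on the raw spot mean 36 were higher and 219 lower.

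The spread of differences at the level of P2rx7 is given by the 3133 other tested probes whose mean over the 6 arrays lay within 0.5 log2 units of its own, 4.34. Their median difference between the groups was -0.01, and from the 5th to the 95th percentile they ran from -0.55 to 0.57. By at least 2-fold 19 of them were higher and 27 lower in LBW. P2rx7 was picked for a large difference, which fixed its place in this distribution. The pooled SD of P2rx7 within groups, 0.23, was an ordinary one, with 37.8% of these probes below it and a median of 0.27.

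**Figure D3:**
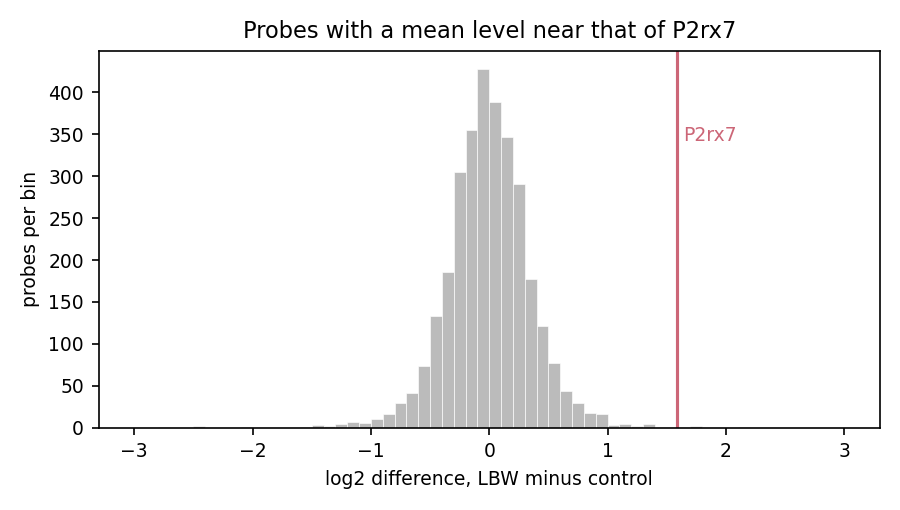
Log2 difference, LBW minus control, of the 3133 tested probes with a mean level within 0.5 of that of P2rx7 (bars, number of probes per bin of 0.1) and of P2rx7 (line, at 1.59). The 5th to 95th percentile of the probes runs from -0.55 to 0.57. The place of P2rx7 was fixed by its choice on this contrast.

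The spots printed around P2rx7 are given as a description. Within 3 rows and columns of it, 43 spots had a median difference of 0.03 (log2 intensity with each array centred on its median, where P2rx7 itself was at 1.59), and within 10 rows and columns 402 spots had a median of -0.02. The highest of these 402 was 1.16, which lay among the nearest 43. Over the whole array 0.184% of 58079 spots reached the P2rx7 difference, so few or none would be met among 402. A local effect on the P2rx7 spot was not tested.

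The probe is 60 bases long with a GC content of 55.0%, above that of 88.7% of the probes on the array, whose median was 45.0%. It is the reagent on which every P2rx7 value here rests, and its first 30 bases, 5′ to 3′, are given in lower case with no part marked: acacgtgactgaaactgcaggagacgaact. No other probe of the array shared more than 14 consecutive bases with the P2rx7 probe on the same strand, and none more than 13 on the opposite strand. The probe with the 14 shared bases, A_64_P164642, which was picked by this search and not by its values, had a log2 difference of -0.47 with overlapping groups, unlike P2rx7. Which exon or untranslated part of P2rx7 the probe lies in was not analysed here, nor was the share of each splice form it detects.

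In the RefSeq annotation of the assembly GRCr8, P2rx7 lies on chromosome 12. On one side its nearest annotated genes are the pseudogene Rpl32-ps11, then P2rx4, which encodes another ATP-gated channel of the same family, then the noncoding LOC120095972 and the pseudogenes LOC134481312 and LOC120096090. On the other side follow Ift81, whose product works in transport within cilia, Atp2a2, the calcium pump of the endoplasmic reticulum, Anapc7, a subunit of the anaphase-promoting complex, the pseudogene Rpl38-ps4 and Arpc3, a subunit of the Arp2/3 complex that branches actin. None of these 10 neighbours of P2rx7 has a probe named in the tables used here, and they were not analysed here.

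The same limit held for the signalling partners of P2rx7. Of 80 genes in 8 lists, covering P2X, P2Y and adenosine receptors, ATP release channels, ectonucleotidases, the inflammasome and interleukin-1 family, P2X7 effectors and kidney fibrosis genes, P2rx7 was the only 1 with a named probe. Its ligand supply and its downstream genes were therefore not analysed here. Of the cell type markers, Lyz2 and S100a8 are given here, and the markers that define kidney cells were not analysed here.

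The macrophage list had 1 of its 15 genes, Lyz2, which encodes lysozyme and is abundant in macrophages and other myeloid cells. The log2 level of Lyz2 was 6.50, 7.29 and 7.17 on control 1, 2 and 3 and 5.45, 5.84 and 5.93 on LBW 1, 2 and 3. Lyz2 was thus lower on every LBW array, with a difference of -1.25 (SE 0.23), while P2rx7 was higher on every one. S100a8, a neutrophil gene and 1 of 3 in its list, was well above background on 3 of 3 control arrays and on 0 of 3 LBW arrays, and was at least 1.19-fold lower in LBW. These genes had probes with names because they differed on the same contrast, so they are no sample of their cell types, and the part of any cell type in the P2rx7 difference was not tested.

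The probes most like P2rx7 were found by the root mean square difference between 6 log2 values, each probe centred on its own mean, over the 33536 other tested probes with a value on all 6 arrays after outlier spots were left out. The nearest was Matn1, which encodes a matrix protein of cartilage, at 0.19. Matn1 had log2 levels of 5.80, 6.05 and 6.0 on control 1, 2 and 3 and 7.47, 7.57 and 7.30 on LBW 1, 2 and 3, a difference of 1.50 (SE 0.12). Like P2rx7 it was high on the 3 LBW arrays with no overlap, but unlike P2rx7 it was lowest on LBW 3 within that group.

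Next to P2rx7 after Matn1 came RGD1564406, at 0.21 and with a difference of 1.51. It was followed by 2 long noncoding RNA probes, CUST_2077_PI429484123 (TCONS_00017119) at 0.21 with a difference of 1.67 and CUST_32363_PI429483654 (XR_146690.1) at 0.22 with a difference of 1.45. LOC100911005 was the last of these 5 probes. It was well above background on none of the control arrays and on 3 of 3 LBW arrays, unlike P2rx7, and was at least 2.18-fold higher in LBW. The other two of the 5 nearest probes with a gene symbol were Lrrc4c, which encodes an adhesion protein of synapses, at least 1.33-fold higher, and Vom2r3, a vomeronasal receptor gene, at least 1.75-fold higher. Neither was well above background on any control array. For these and LOC100911005 the distance to P2rx7, and so the order, rests on control values that give only a bound, and they were tested only through the LBW group, where they are high. P2rx7, Matn1 and RGD1564406 are the only probes with a symbol in this group that were well above background on every array.

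**Figure D4:**
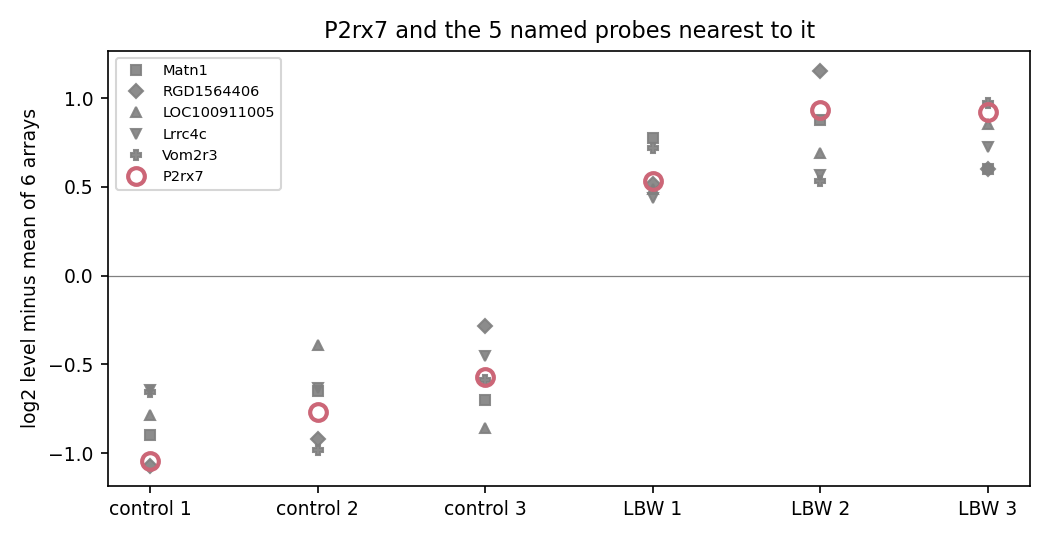
Log2 level minus the mean of 6 arrays for P2rx7 (open circles) and the 5 probes with a gene symbol nearest to it (grey symbols), on each control and LBW array. The 5 were chosen for their closeness to P2rx7, which fixed the split between the groups, and the control values of LOC100911005, Lrrc4c and Vom2r3 were not well above background.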

How the data were processed

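Kidney RNA of 3 LBW and 3 control rats was measured on 1 array per rat. The authors deposited, per the file headers, spot intensity values from Feature Extraction 10.7.1.1, with background subtracted and trends removed within each array. The authors also deposited a table of log2 values, quantile normalized between arrays, with column medians of 6.88. Its columns had a Pearson correlation across probes of at least 0.9998 with the log2 intensity of their own array, and it served as an alternative.

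Non-control spots were quantile normalized, values under 1 were raised to 1, and log2 was taken. Spots marked as outliers were dropped before averaging per probe. Between 79.9% and 83.6% of spots per array were well above background. A probe was tested if every array of the LBW group, the control group or both had it above background, in at least a 0.5 share of its spots. That share came from an earlier analysis of these data, made after the authors' values had been looked at, and has no bearing on P2rx7, which has 1 spot. The fit was limma 3.58.1 in R 4.3.3, two-sided, with Benjamini-Hochberg adjustment, and was tested on simulated data. Descriptions used Python 3.11.15, numpy 2.4.6 and pandas 2.3.3, and figures matplotlib. The number of arrays limits the precision.

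A group not well above background was set, per array, to the higher of its own level and the lowest level among probes above background, which gives the "at least" folds.

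P2rx7 and the lists were chosen with earlier results of these data known. Named genes are P2rx7, its 5 annotated neighbours on each side, the 5 nearest probes and the 5 nearest with a symbol, and list members with a named probe, of which 1 is not reported here. Symbols come from the study's own probe tables, and the RefSeq table was used for names and order only, with the accession listed for P2rx7 found under that symbol. The comparisons with probes of like level, with surrounding spots and with negative controls, the spot error, the search for shared probe sequence and 2 alternatives were chosen after seeing the data. The other alternatives were scaling, background correction, offset, outlier spots, filters, variance and test, a replicate block, the slide row and each array left out.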

Additional observations from a re-analysis of the deposited data

How the results depend on the processing

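P2rx7 was higher in LBW under all 15 alternatives. In 11 of them its log2 difference moved by less than 1 SD between replicates from 1.59. Leaving out 1 array of so small a group could not move it by 1 SD. Nor could that change the direction, since the groups did not overlap. The count of 11 is therefore mostly fixed by construction. Among these 11, keeping outlier spots and the replicate block could not move the difference at all. P2rx7 has 1 spot per array, never marked as an outlier, and the block is balanced between the groups. It was 0.42 with normexp, 0.89 with 16 added to the signal, 0.75 on the raw spot mean (chosen after seeing the data), 1.33 with the slide row as a block, and 1.47 to 1.72 with 1 array left out. Replicate numbers did not pair the samples (correlations of deviations 0.03, 0.06 and -0.01), and a replicate block gave 1.59 for P2rx7 and 0 probes past an adjusted p of 0.05 by limma, with 4839 at an unadjusted p under 0.05. Lyz2 and S100a8 were lower in LBW under all 17 alternatives of each. The t-test, the other variance model, the replicate block and keeping outlier spots left both differences unchanged, so they add nothing on direction. Leaving out 1 array adds nothing either, since the groups did not overlap for Lyz2 or for S100a8. S100a8 was also tested only through the control group, where it is high. With normexp the log2 difference was -0.72 for Lyz2 and -0.13 for S100a8. For S100a8 it was -0.38 with 16 added and -0.29 on the raw spot mean (SE 0.18). The bound of at least 1.19-fold for S100a8 therefore applies to the main processing.

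The count of probes past an adjusted p of 0.05, 48, was 99 with normexp, 141 with 16 added, 182 with trended and robust variance, 7 with the slide row, 3 with no filter on dim probes, 18 with any spot above background on 1 array, 2 with the methods' t-test (4700 at an unadjusted p under 0.05), and 3 to 29 with 1 array left out. Chosen after seeing the data, it was 487 without normalization between arrays and 255 on the raw spot mean. The cause was not tested. The P2rx7 signal was dim, most of all in controls, and the size of its fold depended on the processing.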
